A study of Mus musculus with 6 samples.

Results

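The Wnt genes described here are 45 mouse genes that encode Wnt ligands, the proteins that release or amplify them, their receptors, their antagonists, the beta-catenin machinery inside the cell and genes known to respond to it. They were taken as a list of symbols and matched to array probes through the RefSeq accession that names each probe. Of the 45, 44 had a named probe, out of 44708 genes or unnamed transcripts on the array, and Wisp1 (now called Ccn4) had no probe named by its accession. The 44 genes were covered by 68 probes, and 18 of them had more than 1 probe. The values come from 6 Agilent 1-colour arrays of NIH3T3, an established line of mouse embryo fibroblasts, and the design asked how expression of the enzyme GGCT (gamma-glutamylcyclotransferase) changes gene expression in these cells. The group titled empty (3 arrays) carried the control retroviral vector and the group titled GGCT-OE (3 arrays) carried the pCX4bsr retroviral vector with GGCT, and both were grown in 2% serum. The titles number the experiments 1, 2 and 3 in both groups. The labels give neither the species of the GGCT sequence nor the number of times that the stable cells were established, so the spread that the p-values rest on is that between these 3 experiments, part of which may be technical.

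A Wnt protein is lipid-modified in the secretory pathway, released, and bound at the surface of a receiving cell by a Frizzled receptor with the co-receptors Lrp5 and Lrp6. Without a ligand, a complex built on Axin and Apc marks beta-catenin (Ctnnb1) for destruction, and with a ligand beta-catenin accumulates and acts with Tcf/Lef factors on genes such as Axin2. Other Wnts act through Ror1 and Ror2 without beta-catenin, and in fibroblasts both branches bear on growth, adhesion and matrix production.

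Among the genes known to respond to beta-catenin, Rnf43, Axin2 and Sp5 are shown by their promoter windows because they gave different readings in these arrays, which are described further on. Rnf43 was bright in all GGCT-OE arrays, while Axin2 and Sp5 were not well above background on any of the 6 arrays. Each window is the 300 bases around a RefSeq transcription start, most of them before it (assembly GRCm38.p6, + strand), and capitals mark the core letters of the Tcf/Lef motif, CTTTG or CAAAG on the other strand. The Rnf43 window at chr11:87662837-87663136 and the Axin2 window at chr11:108920099-108920398 hold no core and are therefore in lower case throughout, and the Sp5 window at chr2:70474673-70474972 holds 5.
Rnf43: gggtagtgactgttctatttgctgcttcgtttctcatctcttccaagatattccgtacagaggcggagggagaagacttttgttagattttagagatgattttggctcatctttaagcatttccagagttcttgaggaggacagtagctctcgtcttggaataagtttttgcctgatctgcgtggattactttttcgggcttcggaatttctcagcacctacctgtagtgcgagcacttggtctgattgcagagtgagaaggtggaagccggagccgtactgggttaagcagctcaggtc
Axin2: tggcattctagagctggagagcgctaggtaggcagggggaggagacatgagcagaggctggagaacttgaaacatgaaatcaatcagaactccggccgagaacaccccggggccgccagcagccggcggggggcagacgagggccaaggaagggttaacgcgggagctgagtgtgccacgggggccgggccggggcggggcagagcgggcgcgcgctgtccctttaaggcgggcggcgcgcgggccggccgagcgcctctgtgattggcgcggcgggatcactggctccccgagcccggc
Sp5: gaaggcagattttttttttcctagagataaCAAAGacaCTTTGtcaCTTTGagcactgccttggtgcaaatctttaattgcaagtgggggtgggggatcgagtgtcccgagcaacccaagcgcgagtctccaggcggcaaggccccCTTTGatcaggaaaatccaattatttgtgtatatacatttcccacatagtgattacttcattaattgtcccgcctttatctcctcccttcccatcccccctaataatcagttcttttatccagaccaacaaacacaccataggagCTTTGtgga
The second Rnf43 window held no core either. Over all 32851 windows of this length in the table, 53.9% held the core and 3.73% held the longer form CTTTGAT or ATCAAAG, within which the core lies. Among the 39 windows of the 29 Wnt genes that had one, 19 held the core (48.7%) and 3 held the longer form (7.69%), in Sp5, Wnt11 and Wnt5b. These matches describe letters in a window and say nothing of binding in these cells.

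In the series as a whole, the scanner's flag for signal well above background was set on 54.6% to 61.7% of the probes of an array, no spot was saturated, and the 75th percentile of the processed intensity lay between 380.0 and 471 units. Values below are log2 processed intensities relative to that percentile of the same array, so 0 is the level of the array's 75th percentile, and they are compared between arrays for 1 probe and never between probes. The mouse Ggct probe cannot by itself check the labels, because the species of the GGCT sequence is not given. It read -0.57, -0.72 and -0.66 in the empty arrays and -0.14, 0.20 and -0.16 in the GGCT-OE arrays, so the groups did not overlap (1.53-fold higher, log2 difference 0.62 ± 0.12 SE, limma adjusted p = 0.0111, but 0.0756 without experiment 2, 0.108 without experiment 3 and 0.0504 without a filter on dim probes). All 10 fibroblast markers looked up were well above background on all 6 arrays. Of these, 4 (Col1a1, Col1a2, Col3a1 and Pdgfrb) were lower and 1 (Pdgfra) was higher in GGCT-OE, and their summed linear level relative to the percentile ran from 2015 to 2447 in the empty arrays and from 1549 to 1937 in the GGCT-OE arrays. Of 33 markers of epithelium, endothelium, leukocytes, adipocytes, skeletal muscle and neural cells with a probe, 15 were on no array, among them Epcam, Cdh1, Ptprc, Kdr and Adipoq. Another 11 were well above background on all 6 arrays: Krt8, Krt14, Cldn4, Pecam1, Cd68, Csf1r, Cd3e, Lep, Acta1, Tubb3 and Gfap. Cdh5 was so on the GGCT-OE arrays alone and Vwf on the empty arrays alone. Of the 33, 5 were higher and 4 lower in GGCT-OE, and their sum ran from 20.4 to 21.7 in the empty arrays and from 24.1 to 26.8 in the GGCT-OE arrays. Their part in the Wnt results was not tested, and in bulk RNA a change in the share of cells and a change in RNA per cell cannot be told apart.

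The Wnt genes moved in both directions in GGCT-OE cells. The ligands Wnt10a and Wnt9a and the ubiquitin ligase Rnf43 rose at least 2-fold, and the antagonists Sfrp1 and Dkk3 and the receptors Fzd1 and Ror1 fell at least 2-fold. Smaller changes were a rise in Fzd2 and Tcf7l2 and a fall in Fzd7, Fzd8, Porcn, Wls and Ctnnb1. In all, 30 of the 45 genes were bright enough to test, meaning that the brightest probe carried the flag for signal well above background in every array of the empty group, the GGCT-OE group or both. Of these 30, 5 were higher and 9 lower at a Benjamini-Hochberg adjusted p under 0.05 over all genes tested (limma), 46.7% together, where 34.8% of all 23774 genes tested were called, 17.5% higher and 17.3% lower. The median log2 difference of the 30 was -0.02, beside 0.02 over all genes tested. At 2-fold or more, 3 of the 30 were called higher and 4 lower, beside 3.63% and 5.30% of all genes tested, 8.93% together. Among them Wnt10a, Rnf43 and Sfrp1 could be tested only through the group in which they were bright. For each of the 14 genes called, the groups did not overlap and the difference had the same sign in all 3 experiments. The calls were made on these same values, so this adds no support. Among all 30 Wnt genes tested, GGCT-OE lay wholly above empty in 7 and wholly below in 10. Over all genes tested, the groups did not overlap in 49.3%. The exact permutation test of a single gene, 2-sided, cannot give a p below 0.1 with 3 arrays against 3, and gave 0.1 for each of the 14.

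**Figure D1:**
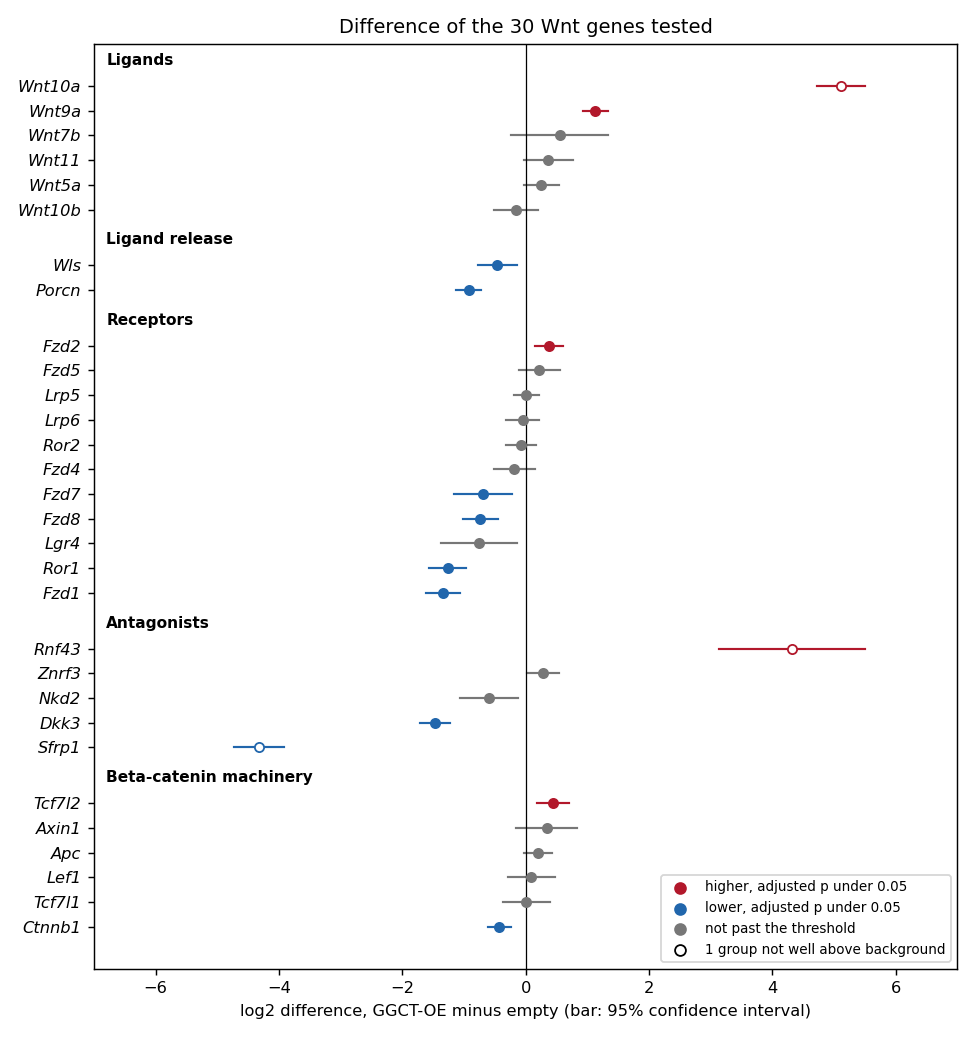
The log2 difference (GGCT-OE minus empty, horizontal axis) of the 30 Wnt genes tested, grouped by role, with bars for the 95% confidence interval from limma. Wnt10a and Rnf43 lie far to the right and Sfrp1 far to the left; their open circles mark that 1 group was not well above background, so the size is not a measured one.

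Of 11 Wnt ligands, 6 could be tested, of which 2 rose and none fell (33.3% called, beside 34.8% of all genes tested). The median difference of the 6 was 0.46. Wnt10a, a ligand that acts through beta-catenin, read -7.28, -7.08 and -6.74 in the empty arrays and -1.95, -2.05 and -1.76 in the GGCT-OE arrays. All 3 GGCT-OE arrays were therefore far brighter, and no empty array was well above background, so the size is a bound: Wnt10a was at least 7.83-fold higher (limma adjusted p = 2.34e-05). For such a bound, here and below, each dim array was given the lowest value of any flagged probe on that array, or the probe's reading where that was higher, and the mean of the bright group was set against the mean of these. Such a gene passed the filter through its bright group alone, and its p-value rests partly on dim readings. That p-value is therefore no separate support for the bound. The fitted log2 difference of Wnt10a was 5.11, and 1.49 when the background was instead corrected with normexp, which adds an offset of 50 units before the log.

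Wnt9a, another secreted ligand, was well above background on every array. It read -0.76, -0.71 and -0.79 in the empty arrays and 0.40, 0.28 and 0.45 in the GGCT-OE arrays. The groups lay far apart against their spread: the means were -0.75 ± 0.04 and 0.38 ± 0.09 (SD, n = 3), a 2.18-fold rise (log2 difference 1.13 ± 0.08 SE, limma adjusted p = 0.000349). The rise was 1.16 in experiment 1 and 1.11 over experiments 2 and 3. With the normexp correction it was 0.88 on the log2 scale, which is below 2-fold.

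The other 4 tested ligands did not pass the threshold. Wnt5a, the best known ligand of the beta-catenin-independent branch, read 2.09, 1.79 and 1.85 in the empty arrays and 2.30, 2.08 and 2.10 in the GGCT-OE arrays on its brightest probe (log2 difference 0.25, 95% interval -0.03 to 0.54, limma adjusted p = 0.149). Each GGCT-OE array was above the empty array of its own experiment but the groups overlapped, and with the experiment as a block the adjusted p was 0.0197. Wnt7b read -3.08, -2.47 and -2.83 in the empty arrays and -2.90, -1.71 and -2.11 in the GGCT-OE arrays (difference 0.55, interval -0.23 to 1.34, limma adjusted p = 0.240, and 0.0336 with the block). It too was higher in each experiment, by 0.18 in experiment 1 and by 0.74 over experiments 2 and 3. Wnt11 differed by 0.36 (interval -0.03 to 0.76), and 2 of its 3 empty arrays were well above background. Wnt10b, whose gene is a close relative of Wnt10a, differed by -0.15 (interval -0.51 to 0.21).

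The remaining 5 ligands were too dim to test. Wnt2 (-7.34 to -5.60 over the 6 arrays) and Wnt2b (-7.23 to -6.70) gave no signal well above background. Wnt4 was well above background on GGCT-OE array 1 alone, with -5.49, -6.95 and -6.64 in the empty arrays and -3.87, -5.75 and -5.20 in the GGCT-OE arrays. Wnt6 was so on empty array 2 alone, and Wnt5b on 1 empty array and 2 GGCT-OE arrays, so for these 3 ligands no difference was measurable on these arrays.

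Of 3 genes of ligand release and agonists, 2 could be tested, and both fell in GGCT-OE cells. That is 100% called, beside 34.8% of all genes tested, but a share of 2 genes says little. Porcn, the acyltransferase that attaches the lipid a Wnt needs for release, read 0.37, 0.44 and 0.43 in the empty arrays and -0.51, -0.60 and -0.43 in the GGCT-OE arrays. The 2 groups were tight and well apart (1.90-fold lower, log2 difference -0.93 ± 0.08 SE, limma adjusted p = 0.000718), with -0.88 in experiment 1 and -0.95 over experiments 2 and 3. Wls, the carrier that takes a lipid-modified Wnt to the cell surface, read 3.85, 3.56 and 3.62 in the empty arrays and 3.41, 3.05 and 3.21 in the GGCT-OE arrays. Its groups were closer to each other than those of Porcn but did not overlap (1.37-fold lower, log2 difference -0.46 ± 0.13 SE, limma adjusted p = 0.0376). Rspo3, a secreted agonist that keeps Wnt receptors at the surface, was well above background on GGCT-OE array 3 alone, where it read -3.82, against -6.07 and -7.23 in the other GGCT-OE arrays and -6.99 to -6.85 in the empty arrays.

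Of 12 receptors and co-receptors, 11 could be tested, of which 1 rose and 4 fell (45.5% called, beside 34.8% of all genes tested). The median difference was -0.19. Fzd1, a Frizzled receptor, read 3.36, 3.48 and 3.54 in the empty arrays and 1.92, 2.25 and 2.18 in the GGCT-OE arrays. Every GGCT-OE array lay at least 1 unit of log2 below every empty array (2.54-fold lower, log2 difference -1.35 ± 0.11 SE, limma adjusted p = 0.000561). Ror1, a receptor of the beta-catenin-independent branch, read -0.17, 0.17 and 0.13 in the empty arrays and -1.35, -1.19 and -1.14 in the GGCT-OE arrays. Its groups were as clearly apart (2.41-fold lower, log2 difference -1.27 ± 0.12 SE, limma adjusted p = 0.000934).

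Its relative Ror2 read 1.90, 1.62 and 1.72 in the empty arrays and 1.64, 1.75 and 1.65 in the GGCT-OE arrays, which overlapped (difference -0.07, interval -0.31 to 0.17). The intervals of Ror1 and Ror2 did not overlap, although the difference between them was not tested.

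Fzd2, which binds Wnt5a among others, went the other way from Fzd1. It read 3.63, 3.73 and 3.75 in the empty arrays and 3.99, 4.06 and 4.21 in the GGCT-OE arrays, a 1.31-fold rise with no overlap (log2 difference 0.38 ± 0.09 SE, limma adjusted p = 0.0227). Fzd7 read -0.55, -1.18 and -1.09 in the empty arrays and -1.43, -1.74 and -1.71 in the GGCT-OE arrays (1.61-fold lower, log2 difference -0.69 ± 0.19 SE, limma adjusted p = 0.0345), and empty array 1 stood above the other empty arrays. Fzd8 read -3.90, -3.61 and -3.80 in the empty arrays and -4.42, -4.44 and -4.65 in the GGCT-OE arrays, of which 2 were well above background (1.66-fold lower, log2 difference -0.73 ± 0.12 SE, limma adjusted p = 0.0049). Fzd8 thus passed the filter through its bright group, the empty arrays, alone. With the normexp correction its log2 difference was -0.28.

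The co-receptors of the beta-catenin branch did not pass the threshold, and their intervals were narrow. Lrp5 read 1.04, 1.14 and 1.19 in the empty arrays and 1.07, 1.14 and 1.18 in the GGCT-OE arrays (difference 0.01, interval -0.19 to 0.21), and Lrp6 differed by -0.05 (interval -0.32 to 0.22). Fzd5 differed by 0.22 (interval -0.11 to 0.55) and Fzd4 by -0.19 (interval -0.52 to 0.15, limma adjusted p = 0.345, and 0.0438 with the experiment as a block). Lgr4, a receptor for R-spondins, read 0.92, 0.19 and 0.49 in the empty arrays and 0.21, -0.47 and -0.42 in the GGCT-OE arrays. It was lower in each experiment, but empty array 2 lay just below GGCT-OE array 1, and the fit gave a difference of -0.76 with a limma adjusted p of 0.0641, and 0.00314 with the block. Its relative Lgr5, a stem cell marker, gave no signal well above background (-7.25 to -6.71 over the 6 arrays).

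Of 9 antagonists, 5 could be tested, of which 1 rose and 2 fell (60% called, beside 34.8% of all genes tested). The median difference was -0.59. Sfrp1, a secreted Frizzled-related protein that binds Wnts outside the cell, read -2.01, -1.58 and -1.68 in the empty arrays and -5.86, -6.04 and -6.31 in the GGCT-OE arrays. No GGCT-OE array was well above background, so Sfrp1 was at least 8.98-fold lower (limma adjusted p = 4.22e-05). The fitted difference was -4.32, and -1.54 with the normexp correction. Sfrp2, of the same family, was well above background on empty arrays 1 and 2 alone and was not tested. It read -4.89, -4.74 and -4.99 in the empty arrays and -7.49, -7.30 and -6.93 in the GGCT-OE arrays, so the groups did not overlap, and no GGCT-OE array was well above background.

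Dkk3, a secreted protein of the Dickkopf family whose hold on Wnt signalling is less settled than that of its relatives, read 3.76, 3.89 and 3.94 in the empty arrays and 2.27, 2.45 and 2.46 in the GGCT-OE arrays. The groups were far apart on bright probes (2.77-fold lower, log2 difference -1.47 ± 0.10 SE, limma adjusted p = 0.000243). Its other 2 probes fell by 1.28 and 1.30 on the log2 scale.

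Rnf43, a membrane ubiquitin ligase that removes Frizzled receptors and is itself known as a beta-catenin target, read -4.95, -6.98 and -5.79 in the empty arrays and -1.70, -1.45 and -1.61 in the GGCT-OE arrays. The GGCT-OE arrays were bright and close together, and the empty arrays were dim and scattered, with none well above background. Rnf43 was at least 9.33-fold higher (limma adjusted p = 0.00148). The fitted difference was 4.32, with 3.25 in experiment 1 and 4.85 over experiments 2 and 3, and 1.38 with the normexp correction.

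Znrf3, the paralogue of Rnf43 with the same activity, read -0.73, -0.52 and -0.46 in the empty arrays and -0.36, -0.31 and -0.19 in the GGCT-OE arrays. Its groups did not overlap, yet the difference of 0.28 (interval 0.02 to 0.54) had a limma adjusted p of 0.0883, and 0.0202 with the block. Nkd2, an inhibitor that binds Dishevelled, read 1.64, 2.16 and 2.24 in the empty arrays and 1.19, 1.45 and 1.60 in the GGCT-OE arrays, again with no overlap, and gave -0.59 (limma adjusted p = 0.0572, and 0.00555 with the block). The secreted inhibitors Dkk2 (-7.37 to -6.64 over the 6 arrays) and Wif1 (-7.30 to -6.75) and the intracellular Nkd1 (-7.35 to -6.67) gave no signal well above background.

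Of 7 genes of the machinery, 6 could be tested, of which 1 rose and 1 fell (33.3% called, beside 34.8% of all genes tested). Ctnnb1, which encodes beta-catenin, read 3.80, 3.69 and 3.77 in the empty arrays and 3.35, 3.34 and 3.30 in the GGCT-OE arrays. The fall was small but larger than the spread in either group (1.34-fold lower, log2 difference -0.43 ± 0.08 SE, limma adjusted p = 0.00804), and its second probe gave -0.44. Tcf7l2, one of the factors through which beta-catenin acts on DNA, read 2.29, 2.27 and 2.18 in the empty arrays and 2.86, 2.53 and 2.68 in the GGCT-OE arrays (1.36-fold higher, log2 difference 0.44 ± 0.11 SE, limma adjusted p = 0.0235). The other factors of that family did not pass the threshold: Lef1 differed by 0.09 (interval -0.29 to 0.48) and Tcf7l1 by 0.01 (interval -0.37 to 0.39). The brightest probe of the fourth, Tcf7, was well above background on empty array 3 alone, where it read -2.21 beside values from -7.27 to -6.77 on the other 5 arrays, and its other 2 probes were so on no array.

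In the destruction complex, the scaffold Axin1 read 2.70, 3.16 and 3.19 in the empty arrays and 3.01, 3.58 and 3.49 in the GGCT-OE arrays. Experiment 1 was lower than the others in both groups, and the difference of 0.34 (interval -0.16 to 0.83) had a limma adjusted p of 0.253, and 0.0115 with the block. Apc read -2.59, -2.56 and -2.61 in the empty arrays and -2.46, -2.46 and -2.23 in the GGCT-OE arrays, a difference of 0.20 with no overlap that did not pass the threshold (limma adjusted p = 0.150).

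Among the 9 genes of the list known as feedback targets of beta-catenin (Axin2, Lef1, Tcf7, Nkd1, Lgr5, Rnf43, Znrf3, Sp5 and Wisp1), 3 could be tested and 1 rose (33.3% called, beside 34.8% of all genes tested). That gene was Rnf43, while Lef1 and Znrf3 gave the values above. Axin2, the target most often read as a report of the pathway, read -7.16, -6.95 and -6.66 in the empty arrays and -7.21, -7.01 and -6.68 in the GGCT-OE arrays. Sp5, a transcription factor, read -7.23, -7.03 and -6.68 in the empty arrays and -4.97, -7.11 and -6.73 in the GGCT-OE arrays, of which array 1 stood apart. Neither was well above background on any array, nor were Nkd1 and Lgr5, so no difference between the groups was measurable for these 4 genes.

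**Figure D2:**
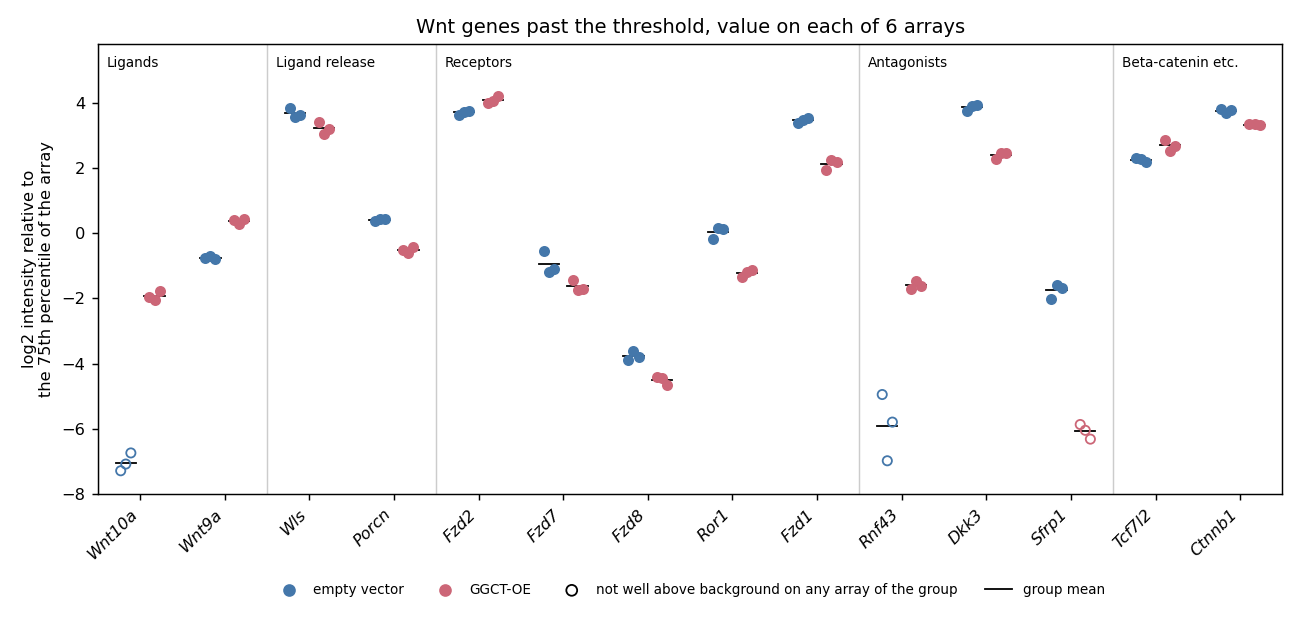
The value on each of the 6 arrays (log2 processed intensity relative to the array's 75th percentile, vertical axis) of the 14 Wnt genes called, by role, with empty and GGCT-OE arrays side by side and a bar at each group's mean. Open points mark a group with no array well above background, as for Wnt10a and Rnf43 in empty cells and Sfrp1 in GGCT-OE cells, and no gene's groups overlap.

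Different probes of 1 gene served as a check on these values where a gene had them. Among the 14 genes called, only Dkk3, Ctnnb1, Wls and Tcf7l2 had another probe well above background. The second probe of Ror1 was so on no array, and the rest had 1 probe each. When all probes were tested on their own (31110 probes, limma), the brightest probes of the 14 genes stayed past the threshold. These are the same values as before, so this is no separate check. The 4 probes of Tcf7l2 ran from 0.35 to 0.45 with 2 of the 4 past the threshold. The second probe of Wls gave -0.41 (adjusted p = 0.0156). For some genes that were not called on the brightest probe, another probe gave another reading. The second probe of Wnt5a read 0.59, 0.41 and 0.48 in the empty arrays and 1.18, 1.11 and 1.19 in the GGCT-OE arrays, which did not overlap (difference 0.67, limma adjusted p = 0.00228 over these probes), and the third differed by 0.44 (adjusted p = 0.129). The second probe of Znrf3 differed by 0.64 (adjusted p = 0.0102) and the second probe of Axin1 by 0.28 (adjusted p = 0.0428). For Wnt7b the probes went opposite ways, 0.55 on the brightest and -0.17 on the other, and neither was called. When the probes of a gene were averaged instead of taking the brightest, Wnt5a (adjusted p = 0.0346), Znrf3 (0.00898) and Lgr4 (0.0183) passed the threshold and Tcf7l2 did not (0.0574).

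**Figure D3:**
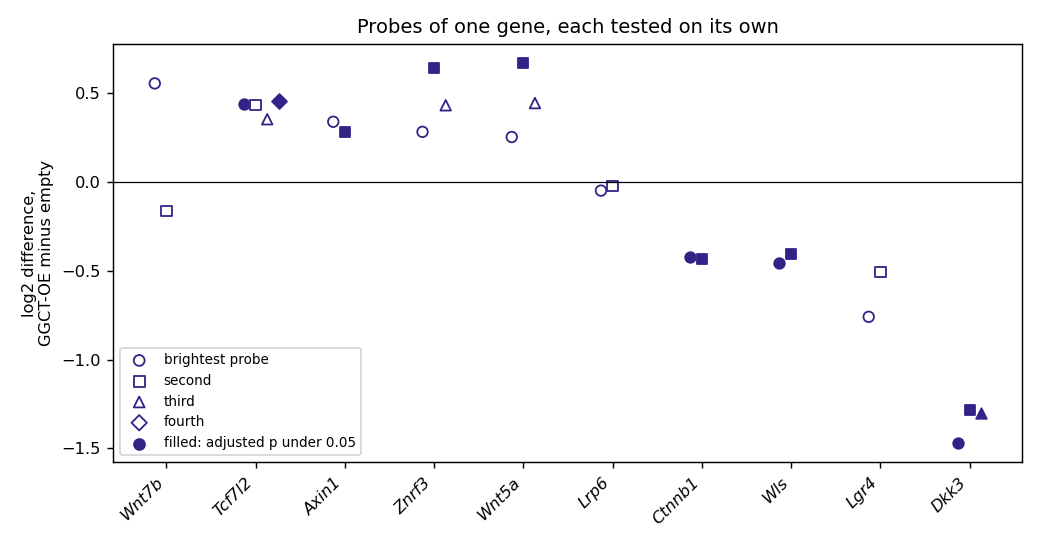
The log2 difference (GGCT-OE minus empty, vertical axis) of every probe of the 10 Wnt genes with at least 2 probes well above background on all 6 arrays, with filled points where a probe tested on its own passed an adjusted p of 0.05. All 3 probes of Wnt5a and of Znrf3 lie above 0, and those of Wnt7b lie on both sides of 0.

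The arrays were hybridised on 2 slides, each with its own scan: slide 1 held experiment 1 of both groups and slide 2 held experiments 2 and 3. The sign of the difference was the same on both slides for all 14 genes called, which follows from their lack of overlap. With the experiment number as a block, 9 of the 30 genes were higher and 12 lower, beside 27.3% and 26.1% of all genes tested. The genes gained were Wnt5a, Wnt7b, Axin1 and Znrf3 (higher) and Fzd4, Nkd2 and Lgr4 (lower), and none of the 14 was lost. Calls of 8 genes (Wnt9a, Wnt10a, Fzd1, Ror1, Sfrp1, Dkk3, Rnf43 and Porcn) held under each alternative in which the gene could be tested. Of these, Wnt10a, Sfrp1 and Rnf43 were left out by the filter over all 6 arrays. They entered the others through their bright group, so for them this adds no support. The other 6 of the 14 genes lost their calls under some alternatives, given here by adjusted p-values from limma. With all arrays kept but no filter on dim probes, the calls of Fzd2 (0.105), Fzd7 (0.107), Tcf7l2 (0.0983), Ctnnb1 (0.0554) and Wls (0.130) were lost, and Fzd2 also missed the threshold when arrays were scaled to their medians (0.0580). Fzd8 lost its call without experiment 2 (0.0599) or 3 (0.0921), and Ctnnb1 likewise (0.0727 and 0.166). Fzd7 lost it without experiment 2 (0.132) or 3 (0.189), without GGCT-OE array 2 (0.104) or 3 (0.110) and without empty array 3 (0.0684). Tcf7l2 lost it without experiment 2 (0.0804) or 3 (0.233), without empty array 2 (0.0695) or 3 (0.0940) and without GGCT-OE array 3 (0.0766). Fzd2 lost it without experiment 2 (0.142) or 3 (0.212), without empty array 1 (0.0643), 2 (0.0679) or 3 (0.0688) and without GGCT-OE array 2 (0.0548) or 3 (0.0807). Wls lost it without experiment 2 (0.152) or 3 (0.233), without empty array 1 (0.0916), 2 (0.0664) or 3 (0.0939) and without GGCT-OE array 2 (0.102) or 3 (0.111). The directions of these 6 genes did not change when an array or an experiment was left out. The count of genes called higher was 3 without empty array 2, without empty array 3, without GGCT-OE array 3, without experiment 2 and without experiment 3, and the count called lower was 5 without experiment 2. Without experiment 3, 6 genes were lower, among them Sfrp2, which could be tested there (adjusted p = 0.00725) because both remaining empty arrays were well above background. Over all genes, calls without experiment 3 numbered 693 higher and 1086 lower, beside 4164 and 4110 with all arrays. Fewer calls there are therefore not particular to the Wnt genes.

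**Figure D4:**
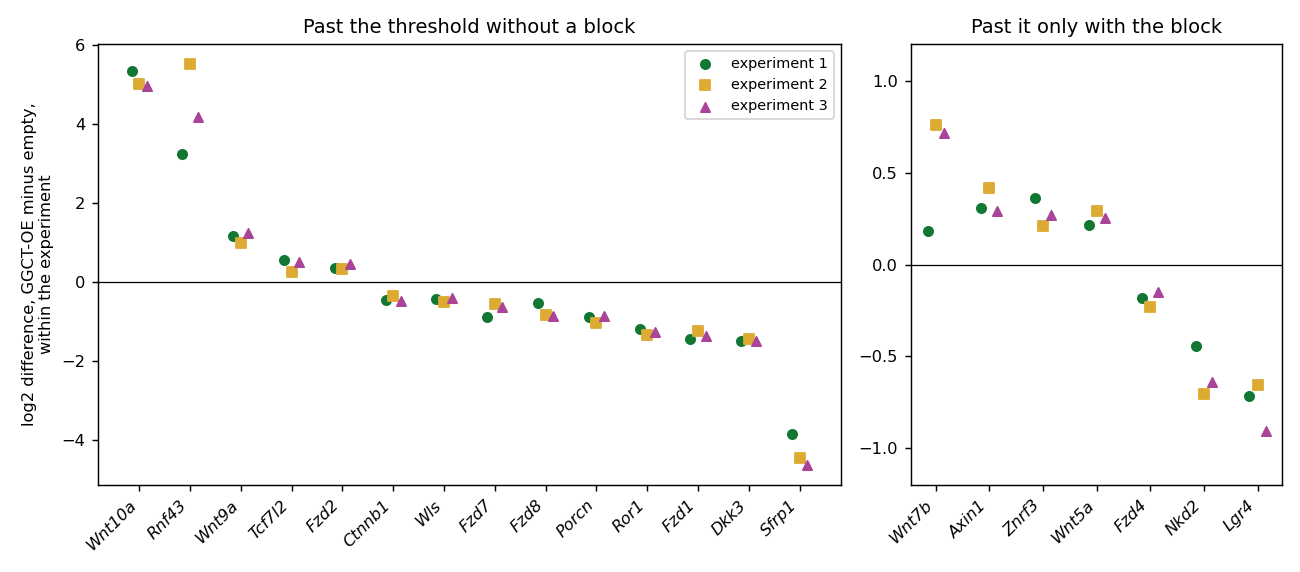
The log2 difference (GGCT-OE minus empty, vertical axis) in each of the 3 experiments for the 14 Wnt genes called (left) and for the 7 called only with the experiment as a block (right); the vertical scales of the panels differ. Each gene keeps its sign over the 3 experiments.

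A further 127 genes of Wnt signalling, listed by role but with earlier results of these data known, were read in the same fit. Of these, 84 could be tested, of which 13 were higher and 18 lower (36.9% together, beside the 34.8% of all genes tested), with a median difference of -0.02, and 33 were on no array. Over all genes, calls fell from 4164 higher and 4110 lower to 693 and 1086 without experiment 3. The 13 became 7 without empty array 3, 5 without experiment 2 and 3 without experiment 3, and the 18 became 7 without experiment 3. With the experiment as a block, 19 were higher and 27 lower, beside 27.3% and 26.1% of all genes tested. Of 8 further Wnt ligands, 7 were on no array and the 1 tested was not called. None of 4 further agonists could be tested.

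Among 14 further receptors and co-receptors, 8 could be tested, of which 1 rose and 2 fell (37.5% called, beside 34.8% of all genes tested). Gpc6, a glypican that can present Wnts at the surface, was 8.28-fold lower (log2 difference -3.05 ± 0.21 SE, limma adjusted p = 0.000276). Fzd6 was bright in the empty arrays, carried the flag on no GGCT-OE array and was at least 3.52-fold lower (limma adjusted p = 0.00129). Lrp4, a receptor of the Lrp family, was 1.79-fold higher (limma adjusted p = 0.0293). With the normexp correction these differences were -1.63 for Gpc6, -0.72 for Fzd6 and 0.43 for Lrp4, and the last missed the threshold (adjusted p = 0.0502). Of 17 further secreted antagonists, 5 could be tested and 2 fell (40% called, beside 34.8% of all genes tested). These were Igfbp4 (2.45-fold, limma adjusted p = 0.00199) and Trabd2b (1.83-fold, limma adjusted p = 0.00253), a membrane protease that cleaves Wnts. The call of Lrp4 was also lost without any 1 of the GGCT-OE arrays, without empty array 2 or 3, without experiment 2 or 3 and when dim probes were kept in the fit (adjusted p between 0.0549 and 0.170), and without experiment 3 those of Igfbp4 (0.0586) and Trabd2b (0.0615) were lost.

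Of 37 further intracellular components, 35 could be tested, of which 8 rose and 3 fell (31.4% called, beside 34.8% of all genes tested). With the experiment as a block, 12 rose and 8 fell, beside 27.3% and 26.1% of all genes tested. Tle4, a co-repressor of the Tcf factors, was 2.36-fold higher (log2 difference 1.24 ± 0.12 SE, limma adjusted p = 0.000815). Bcl9, a co-activator bound by beta-catenin, was 1.63-fold higher (limma adjusted p = 0.00233), and Amer1, a partner of Apc and Axin, was 1.54-fold higher (limma adjusted p = 0.0048). The genes that fell did so little: Bcl9l 1.39-fold, Tle3 1.23-fold and Mesd 1.22-fold, and over the mean of their probes none of the 3 passed (adjusted p = 0.350, 0.0930 and 0.732). Each of these 3 also missed the threshold without any 1 of the empty arrays, without GGCT-OE array 3 and without experiment 2 or 3, as did Tle3 and Mesd without GGCT-OE array 2 and Mesd without GGCT-OE array 1 (adjusted p between 0.0599 and 0.342). With no filter on dim probes the adjusted p was 0.101 for Bcl9l, 0.143 for Tle3 and 0.154 for Mesd, and with quantile normalization it was 0.0532 for Mesd. Without experiment 3, Bcl9 (0.0808) and Amer1 (0.112) missed it.

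Of 17 genes of planar polarity and calcium signalling, 14 could be tested, of which 1 rose and 5 fell (42.9% called, beside 34.8% of all genes tested). Daam2, a formin bound by Dishevelled, was 7.42-fold lower (log2 difference -2.89 ± 0.10 SE, limma adjusted p = 2.69e-05). Prickle2, a planar polarity gene, was 5.41-fold lower with 2 of 3 GGCT-OE arrays well above background (limma adjusted p = 0.00124, log2 difference -2.44, and -0.98 with the normexp correction). It passed the filter through the empty group alone. The transcription factor gene Nfatc1 was 2.19-fold lower (limma adjusted p = 0.00195). Vangl2, a core gene of planar polarity, was 1.87-fold higher (limma adjusted p = 0.0084). The call of Vangl2 was lost without experiment 2 (0.0992) or 3 (0.0950), and that of Nfatc1 without experiment 3 (0.0504).

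Of 30 other genes described as targets of beta-catenin, 21 could be tested, of which 3 rose and 6 fell (42.9% called, beside 34.8% of all genes tested). With the experiment as a block, 5 rose and 9 fell, beside 27.3% and 26.1% of all genes tested. Mycn, a transcription factor gene of the Myc family, read -2.39, -2.24 and -2.51 in the empty arrays and -0.84, -0.62 and -0.76 in the GGCT-OE arrays. Its groups were far apart (3.11-fold higher, log2 difference 1.64 ± 0.11 SE, limma adjusted p = 0.000237, and 1.05 with the normexp correction). Met, a receptor tyrosine kinase, was 1.97-fold higher (limma adjusted p = 0.000934) and the transcription factor gene Jun 1.51-fold higher (limma adjusted p = 0.0167). Jun missed the threshold without empty array 2 (0.0597) or 3 (0.0688) and without experiment 2 (0.111) or 3 (0.126), and with no filter on dim probes (0.0670). The lowest log2 difference of this list belonged to Ccn5, a matricellular gene of the family that holds Wisp1, which read 2.99, 2.70 and 2.79 in the empty arrays and -0.98, -2.09 and -1.17 in the GGCT-OE arrays. It was 18.9-fold lower, with GGCT-OE array 2 the dimmest (log2 difference -4.24 ± 0.29 SE, limma adjusted p = 0.000281). Id2, an inhibitor of helix-loop-helix factors, was 2.34-fold lower (limma adjusted p = 0.000357) and Vegfa, an angiogenic factor, 2.07-fold lower (limma adjusted p = 0.000935), with a log2 difference of -1.05 for Vegfa on its brightest probe and -0.52 over the mean of its probes.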

How the data were processed

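Total RNA of 6 cell samples was labelled with Cy3 and hybridised to 6 Agilent 1-colour arrays (62976 spots each), per the labels. Spot intensities were extracted by the authors with Agilent Feature Extraction 12.1.0.3 (protocol GE1_1200_Jun14), which subtracted background and detrended within each array, per the file headers. The files also hold deposited flags (0 or 1, listed as another unit) for spots that are well above background, saturated or outliers. A deposited table holds log2 values of the same arrays with column medians of -3.88 to -3.70. A column differed from the log2 processed intensity of its array by a constant (correlation 1 over 17896 probes above 200 units), so scale and direction are known and no centring over arrays was seen.

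Control spots (3671) and outlier spots (578 in all) were left out, and 300 probes printed in several spots were averaged. Of 56605 probes, 35 lacked a usable spot on at least 1 array. Unversioned accessions matched to the RefSeq table of GRCm38.p6 named 34504 of the remaining 56570 probes (60.99%). The array design names another build (mm9), so the table gave names alone, and promoter windows came from the RefSeq table of GRCm38.p6.

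The log2 processed intensity minus the array's 75th percentile was fitted with limma 3.58.1 in R 4.3.3 (lmFit, eBayes, 2-sided, no block). The brightest probe stood for a gene, and 23774 genes or transcripts, 14055 with a symbol, were tested. The threshold was a Benjamini-Hochberg adjusted p under 0.05. The number of arrays limits the precision.

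Same-numbered samples of the groups deviated together (correlations 0.731, 0.453 and 0.358 for experiments 1, 2 and 3), and the numbers, taken from the sample titles, were taken to pair the samples. The unmatched pairs on slide 2 gave 0.299 and 0.342, so shared number and shared slide are hard to tell apart there, and pairs across slides gave -0.56 to -0.46. All these correlations are of values after each group's mean was subtracted. Such deviations cancel out within a group, so positive values for some pairs bring negative ones for others. The negative values are therefore no separate evidence of pairing. The planned normexp alternative used median signals because the files hold no mean signals; it was chosen after the columns were seen. The other alternatives concerned normalization, filter, probe choice, variance, slide, pairing and left-out arrays. The fit was tested on simulated data.

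The 45 genes, the other gene lists and the rule for naming genes (all 45; elsewhere up to 3 called genes per list and direction with the smallest p) were chosen with earlier results of these data known.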

Additional observations from a re-analysis of the deposited data

How the results depend on the processing

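Directions of the 30 Wnt genes and of Ggct did not reverse where the value was called, in any of the 22 alternatives. In the main fit, 4164 of the 23774 genes tested were higher and 4110 lower. Without a filter on dim probes, 2218 of all 44708 genes were higher and 2493 lower, with 3 Wnt genes and 6 other genes of Wnt signalling higher. The filter over all 6 arrays left 3 Wnt genes higher, since it leaves out genes dim in 1 group. Array weights gave 6633 and 6193 of all genes, 10 Wnt genes higher and 23 other genes of Wnt signalling higher. The replicate block gave 6490 and 6195 of all genes and 9 Wnt genes higher, and lost none of the calls of the 14 Wnt genes. A slide block gave 6562 and 6191 of all genes, 8 Wnt genes higher and 28 other genes of Wnt signalling lower. Array weights and both blocks were fitted to the 23774 genes of the main fit. The Wnt counts given for these settings rose where the counts over all genes rose too. Leaving out 1 array or 1 experiment gave 693 to 4573 genes higher and 1086 to 4530 lower, 3 to 7 Wnt genes higher and 5 to 11 lower, and 3 to 14 other genes higher and 7 to 18 lower. The lowest of the counts over all genes came without experiment 3.

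The dim genes limit these data: 14 of the 44 Wnt genes with a probe were not bright enough to test, and Wnt10a, Rnf43 and Sfrp1 have a bound and no measured fold. Slide 2 alone is the same run as leaving out experiment 1.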

Other observations

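The protein-coding genes next to the 7 Wnt genes that changed at least 2-fold were read by their order in the RefSeq table, 5 on each side, as a look chosen after the values were seen. Wnt10a lies next to Wnt6, another Wnt ligand gene, which was too dim to test. Of the 10 neighbours of Wnt10a, 5 could be tested and 3 were higher in GGCT-OE cells (limma): Ihh, the gene of the hedgehog ligand Indian hedgehog (1.21, adjusted p = 0.0148), Ttll4 (0.90, adjusted p = 0.00198) and Stk36 (0.45, adjusted p = 0.0157), all as log2 differences.

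Of the 10 neighbours of Rnf43, 8 could be tested. The adjacent Hsf5 was higher (log2 difference 1.36, limma adjusted p = 0.00048), Mks1 was higher by 0.41 (adjusted p = 0.0429), and Septin4 was lower (-1.42, adjusted p = 0.00443). Near Sfrp1, 5 of 10 neighbours could be tested and 2 were lower, the adjacent Golga7 (-0.30, limma adjusted p = 0.0375) and Tcim (-0.75, adjusted p = 0.00517), none by as much as Sfrp1. Around Fzd1, 1 of 8 tested neighbours was higher and none lower, and around Dkk3 2 of 8 were lower and none higher. Around Wnt9a 1 of 8 was higher and 2 lower, and around Ror1 2 of 7 were higher and 2 lower. These shares stand beside 34.8% called of all genes tested, and with so few neighbours they are values with no test.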
